A study of Mus musculus with 6 samples.

Results

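Potassium channel genes were chosen by total tag count, as all gene symbols beginning with Kcn that collected at least 30 sense tags summed over 6 mouse libraries, which gave 54 members among 79 Kcn symbols with any tag and 23120 gene features with any tag. This choice favours genes of brain, which gave 4 of the 6 libraries. Just inside the limit stood Kcnn3 with 30 tags, Kcnj2 with 32, Kcnu1 with 33 and Kcnk5 with 44. Just outside stood Kcnb2 with 28, Kcns2 with 25, and Kcnk4 and Kcnmb2 with 23 each. One member, Kcnq1ot1, is a noncoding RNA and not a channel subunit.

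The libraries were made by MACE, which reads a fragment near the 3′ end of polyadenylated RNA, so tag counts do not grow with transcript length and levels can be compared between genes. Cerebellum, hippocampus and liver were taken from C57BL/6 mice aged 6 months, either homozygous for loss of Atxn2 (Atxn2-KO) or wild type (WT). Each tissue and genotype was represented by 1 library from a pool of 3 animals. Atxn2 encodes ataxin-2, an RNA-binding protein, and the labels do not say which part of the gene was removed.

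Atxn2 itself was nearly lost, with 0 tags in knockout cerebellum against 167 in wild type, 1 against 194 in hippocampus and 2 against 115 in liver. Xist, which marks female cells, had 0 tags in every knockout library and 34, 49 and 87 in the wild-type cerebellum, hippocampus and liver, so sex cannot be told apart from genotype in any comparison of genotypes here. Gene tags numbered 1774523 to 2727523 per library. Levels are given as CPM, which is tags per 1000000 gene tags after scaling between libraries, with the knockout value before the wild-type value throughout, and 1 tag was worth 0.303 to 0.362 CPM in brain and 1.05 and 0.633 in liver. Hippocampal excitatory neuron markers summed to 5103 and 5866 CPM in hippocampus, while the dopamine neuron genes Th and Slc6a3 had at most 1 tag there.

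Potassium channels let potassium ions cross the membrane and so set the resting potential, end action potentials and shape firing rate. Voltage-gated (Kv) channels are tetramers of pore subunits with cytoplasmic or membrane-bound partners, inward rectifiers (Kir) and tandem-pore (K2P) channels hold the resting potential, and other families open with calcium or sodium. In cerebellum, Kv3 channels are known for the brief action potentials of fast-spiking neurons, and in hippocampus, Kv7 channels carry the M current that limits repetitive firing.

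Promoter windows show the sequence in front of members that mark each tissue, chosen for their place in the tissue comparisons. RefSeq windows of GRCm38.p6, running from 250 bases before to 50 after an annotated start, were matched by symbol for 40 of the 54 members. Kcnc1 and Kcng4 were highest in cerebellum, Kcnj4 and Kcnf1 in hippocampus, and Kcnk5 in liver. Each window is written 5′ to 3′ on the gene's strand. The start used lies 249 bases inside the annotated gene span for Kcnc1 and 7270 bases inside it for Kcnj4, and at the outer end of the span for the other 3. Capitals mark GC boxes (GGGCGG on either strand).
Kcnc1, chr7:46396218-46396517, plus strand: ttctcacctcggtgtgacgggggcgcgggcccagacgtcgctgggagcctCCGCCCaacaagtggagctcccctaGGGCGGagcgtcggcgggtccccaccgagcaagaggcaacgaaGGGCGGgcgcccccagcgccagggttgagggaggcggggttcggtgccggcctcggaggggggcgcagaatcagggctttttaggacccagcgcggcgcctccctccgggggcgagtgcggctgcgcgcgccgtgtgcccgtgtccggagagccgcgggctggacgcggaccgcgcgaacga
Kcng4, chr8:119635631-119635930, minus strand: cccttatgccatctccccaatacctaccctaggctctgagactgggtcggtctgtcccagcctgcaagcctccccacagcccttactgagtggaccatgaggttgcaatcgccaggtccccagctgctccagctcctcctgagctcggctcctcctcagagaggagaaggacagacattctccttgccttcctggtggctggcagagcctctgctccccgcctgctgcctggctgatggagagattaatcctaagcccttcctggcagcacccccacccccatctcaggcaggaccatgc
Kcnj4, chr15:79505192-79505491, minus strand: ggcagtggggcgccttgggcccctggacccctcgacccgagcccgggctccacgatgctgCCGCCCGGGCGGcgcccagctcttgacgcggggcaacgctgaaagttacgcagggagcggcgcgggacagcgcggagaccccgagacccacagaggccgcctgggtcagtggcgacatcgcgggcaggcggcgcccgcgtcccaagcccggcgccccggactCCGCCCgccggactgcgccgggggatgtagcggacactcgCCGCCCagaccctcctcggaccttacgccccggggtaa
Kcnf1, chr12:17176839-17177138, minus strand: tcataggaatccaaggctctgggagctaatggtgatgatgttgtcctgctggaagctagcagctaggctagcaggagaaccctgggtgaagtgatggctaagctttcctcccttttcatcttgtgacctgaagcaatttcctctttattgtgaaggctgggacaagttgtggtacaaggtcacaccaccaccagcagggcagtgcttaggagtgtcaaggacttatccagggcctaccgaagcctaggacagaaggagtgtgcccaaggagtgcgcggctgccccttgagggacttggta
Kcnk5, chr14:20181733-20182032, minus strand: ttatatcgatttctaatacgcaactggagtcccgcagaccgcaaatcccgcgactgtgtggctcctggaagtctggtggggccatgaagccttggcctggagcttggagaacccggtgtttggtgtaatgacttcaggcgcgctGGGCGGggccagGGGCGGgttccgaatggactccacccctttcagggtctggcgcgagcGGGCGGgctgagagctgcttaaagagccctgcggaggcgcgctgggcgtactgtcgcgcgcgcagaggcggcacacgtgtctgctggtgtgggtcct

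Among these windows, Kcnc1 held 3 GC boxes, Kcnj4 4 and Kcnk5 3, while Kcng4 and Kcnf1 held none. GC content ran from 53.0% in Kcnf1 to 76.0% in Kcnj4. The cerebellar pair and the hippocampal pair thus each held 1 window with GC boxes and 1 without. Over the 63 windows of the 40 matched members, 44.4% held a GC box, against 35.7% of all 32851 windows. TATAAA on either strand stood in 6.35% of member windows and 13.6% of all windows, and CCAAT in 33.3% and 37.4%. None of these motifs is contained in another, though neighbouring matches can share end letters. A match describes letters only, and 3′ tags do not show which start a transcript used.

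Levels and the balance of cerebellum, hippocampus and liver were compared first. Member tags summed to 12119 and 13659 for cerebellum, to 7955 and 8012 for hippocampus and to 193 and 395 for liver. By mean level, 28 members were highest in cerebellum, 23 in hippocampus and 3 in liver. In hippocampus Kcnab2, a Kv beta subunit, gave the largest share of member tags, with 15.0%.

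**Figure D1:**
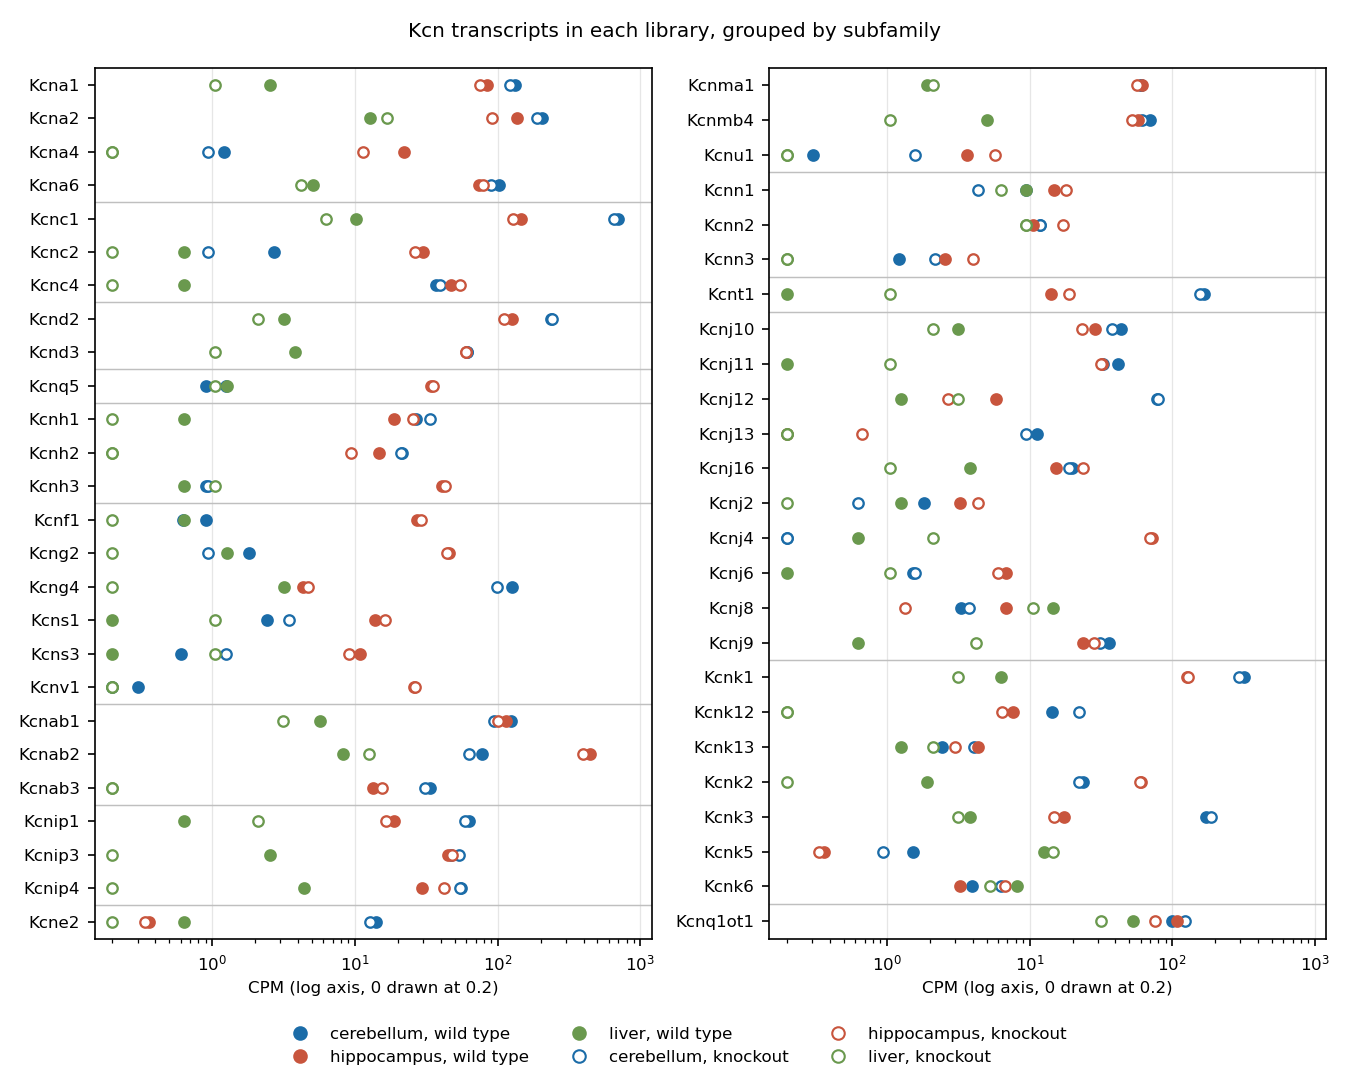
Level of 51 of the 54 members in the 6 libraries, in CPM on a log axis; filled points are wild type, open points knockout, and horizontal lines separate subfamilies. Points of the same tissue lie together for most members, while cerebellum and hippocampus stand apart for genes such as Kcnc1, Kcng4, Kcnj4 and Kcnv1.

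In the fit of hippocampus against cerebellum (edgeR quasi-likelihood, 2 libraries per tissue, genotype as a term, Benjamini-Hochberg adjustment over 12905 features), 52 members were tested. Of these, 17 were higher in hippocampus and 18 lower at an adjusted p under 0.05, against 15.8% and 13.5% of all features. The median log2 difference was -0.07 over the tested members and 0.00 over all features. The libraries of both tissues did not overlap for 45 of the 54 members, against 64.1% of all features with at least 30 tags. Without its most tagged tissue, 19 members would fall under 30 tags. Those passed the limit only with that tissue, so the counts carry no weight as support. These 19 were Kcna4, Kcnc2, Kcne2, Kcnf1, Kcng2, Kcnh3, Kcnj12, Kcnj13, Kcnj2, Kcnj4, Kcnj6, Kcnk13, Kcnk5, Kcnn3, Kcnq5, Kcns1, Kcns3, Kcnu1 and Kcnv1. Their tissue p-values likewise carry no weight as support. Kcnj2 (2 and 6 cerebellar and 13 and 9 hippocampal tags) and Kcnn3 (7 and 4 and 12 and 7) were too low to be tested.

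**Figure D2:**
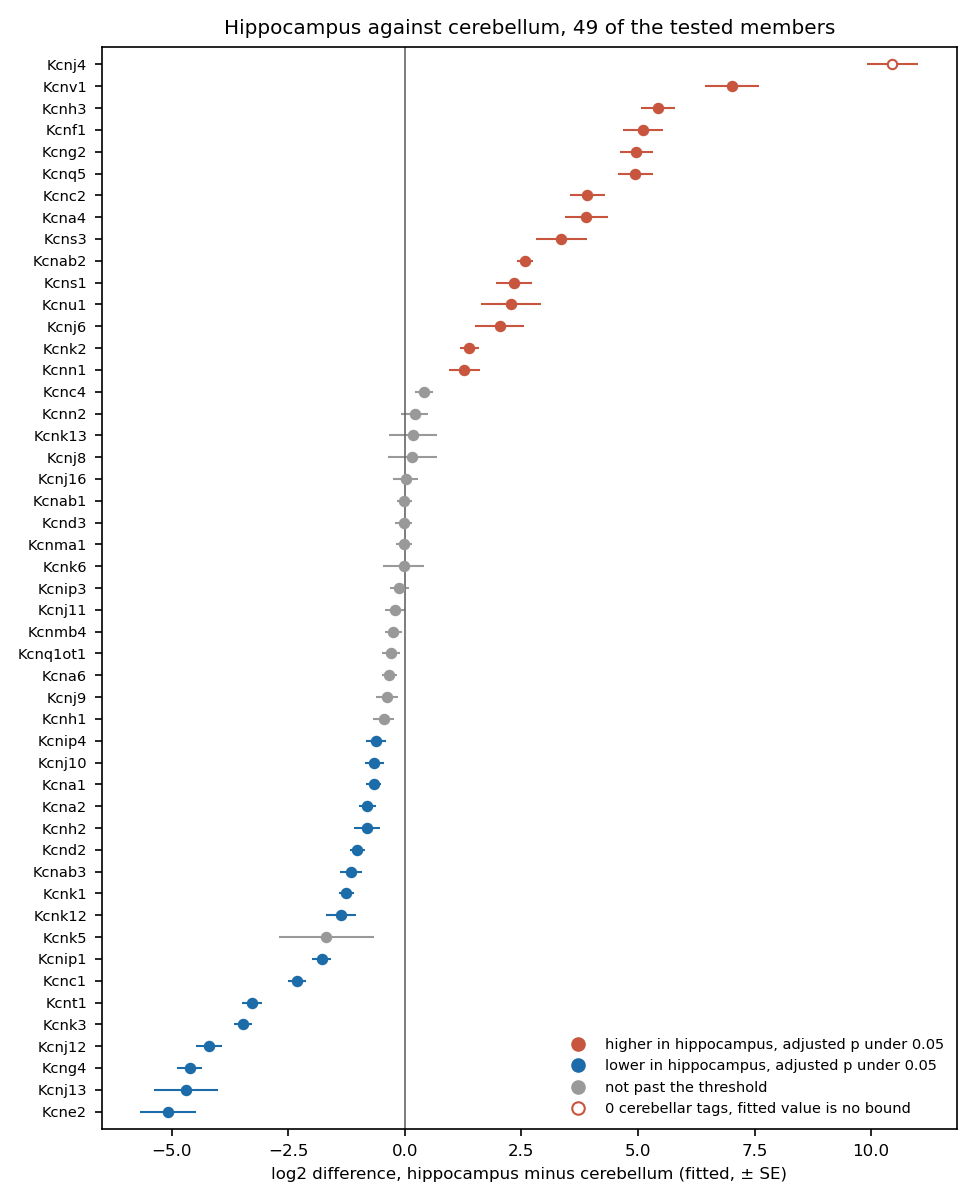
Fitted log2 difference of hippocampus minus cerebellum with its SE for 49 of the 52 tested members, sorted. Coloured points passed an adjusted p of 0.05; 15 lie to the right and 17 to the left, and Kcnj4, drawn open, had 0 tags in both cerebellar libraries.

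These p-values rest on the spread between 1 knockout and 1 wild-type library per tissue and on the spread shared over genes, with genotype as a term. Leaving out the knockout or the wild-type cerebellar library kept 26 and 28 of the 35 calls, and leaving out the knockout or the wild-type hippocampal library kept 28 and 30. The 10 members whose call was lost in at least 1 of these were Kcna1, Kcna2, Kcnab3, Kcnh2, Kcnip4, Kcnj6, Kcnj10, Kcnk12, Kcnn1 and Kcnu1, which also did not pass with DESeq2. Calls over all features also fell whenever a brain library was left out, and went from 3791 to 1935 with DESeq2. Such losses are thus not particular to these members. In tissue RNA, fewer cells of a type and less RNA per cell cannot be told apart.

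Kv3 pore subunits were divided between the tissues. Kcnc1 (Kv3.1, chromosome 7, 46396219 to 46438706) stood at 656 and 702 CPM for cerebellum, 128 and 146 for hippocampus and 6.29 and 10.1 for liver. Every cerebellar value lay above every hippocampal value. The log2 difference of hippocampus minus cerebellum was -2.31 ± 0.19 (SE) (adjusted p = 1.71e-09). Kcnc2 (Kv3.2, chromosome 10, 112269898 to 112466304), a subunit known from cortical interneurons, went the other way, with 3 and 9 tags (cerebellum), 79 and 83 (hippocampus) and 0 and 1 (liver). Its log2 difference was 3.92 ± 0.38 (SE) (adjusted p = 2.39e-08). Kcnc4 (Kv3.4) had 39.1 and 37.0 CPM in cerebellum and 54.4 and 47.1 in hippocampus, a log2 difference of 0.41 that did not pass the test (adjusted p = 0.110).

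The deposited counts also separate 2 annotated variants of Kcnc1. Records of variant A alone held 1440 and 1594 of the gene's tags in cerebellum and 232 and 256 in hippocampus, or 68.8% and 62.2% of its tags. Records of variant B alone held 61 and 64 tags in cerebellum and 28 and 31 in hippocampus, or 2.84% and 7.53%. The remaining tags fell in the sequence that both variants share. The share of variant B was higher in both hippocampal libraries than in both cerebellar libraries, and this difference was not tested.

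Kv1 pore subunits, which open near threshold and are known from axons, did not share 1 pattern, with Kcna1 and Kcna2 lower in hippocampus and Kcna4 higher. Kcna1 (Kv1.1, mutated in human episodic ataxia) stood at 122 and 132 CPM in cerebellum, with 75.2 and 84.0 in hippocampus and 1.05 and 2.53 in liver. Kcna2 (Kv1.2) stood at 189 and 203 CPM for cerebellum, 91.4 and 137 for hippocampus and 16.8 and 12.7 for liver. Kcna1 and Kcna2 were lower in hippocampus by log2 differences of -0.67 ± 0.17 (SE) and -0.80 ± 0.17 (SE) (adjusted p = 0.00320 and 0.00103). Kcna6 (Kv1.6), which lies 62.5 kb from Kcna1 on chromosome 6, had 89.9 and 102 CPM in cerebellum and 78.9 and 73.5 in hippocampus and did not pass (log2 difference -0.33, adjusted p = 0.149). Kcna4 (Kv1.4), a fast-inactivating subunit of hippocampal axons and terminals, had 3 and 4 tags (cerebellum), 34 and 61 (hippocampus) and 0 and 0 (liver). Its hippocampal tags were thus more numerous in both genotypes, with a log2 difference of 3.89 ± 0.46 (SE) (adjusted p = 7.59e-07).

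Kv beta subunits, the cytoplasmic partners that bind Kv1 channels, differed among themselves. Kcnab2 (chromosome 4, 152390744 to 152477549) stood at 62.6 and 78.2 CPM in cerebellum, with 398 and 442 in hippocampus and 12.6 and 8.22 in liver. It was the most tagged member of hippocampus, 5.94 times its cerebellar level, with a log2 difference of 2.58 ± 0.18 (SE) (adjusted p = 1.52e-10). Kcnab1 stood at 94.3 and 123 CPM for cerebellum, 101 and 114 for hippocampus and 3.15 and 5.69 for liver, and its log2 difference between the brain tissues was -0.01 ± 0.16 (SE) (adjusted p = 0.975). Kcnab3 was lower in hippocampus, with 15.5 and 13.4 CPM against 31.0 and 33.3 in cerebellum and 0 liver tags (log2 difference -1.15, adjusted p = 0.000763).

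Kv4 subunits carry the A-type current of dendrites, and KChIP proteins (Kcnip genes) bind and modulate them. Kcnd2 (Kv4.2) stood at 241 and 237 CPM (cerebellum), 111 and 126 (hippocampus) and 2.10 and 3.16 (liver), and was lower in hippocampus by a log2 difference of -1.02 ± 0.16 (SE) (adjusted p = 3.17e-05). Kcnd3 (Kv4.3) was near-equal in level, at 61.1 and 61.2 CPM in cerebellum and 60.5 and 59.8 in hippocampus (log2 difference -0.02 ± 0.18 (SE), adjusted p = 0.941). Kcnip1 stood at 58.9 and 62.8 CPM in cerebellum, with 16.5 and 18.8 in hippocampus and 2.10 and 0.633 in liver. Like Kcnd2 it was lower in hippocampus in both genotypes (log2 difference -1.78, adjusted p = 5.28e-07). Kcnip4 was also lower (-0.62, adjusted p = 0.0385), with 54.8 and 55.2 CPM in cerebellum and 42.0 and 29.7 in hippocampus. Kcnip3, at 53.5 and 47.0 CPM in cerebellum and 48.0 and 44.6 in hippocampus, did not pass (adjusted p = 0.705). Dpp10, a membrane partner of Kv4, had a log2 difference of -1.85 (adjusted p = 5.51e-07), and its relative Dpp6 one of -0.41 (adjusted p = 0.0672).

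Kcnq5 (Kv7.5), a subunit of the M current, was higher in hippocampus. It had 4 and 3 tags for cerebellum, 105 and 94 for hippocampus and 1 and 2 for liver. Both hippocampal libraries thus held far more tags than any other, with a log2 difference of 4.94 ± 0.37 (SE) (adjusted p = 5.51e-10).

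Modifier subunits form no channel alone and join Kv2 subunits. Of the 6 modifier members, 5 were higher in hippocampus and Kcng4 alone was lower. Those 5 had 1 (Kcnv1) to 20 (Kcns1) tags outside hippocampus and passed the 30-tag limit only through it. Their number and p-values therefore carry no weight as support. Kcnv1 (Kv8.1, chromosome 15, 45096086 to 45115912) had 0 and 1 tags (cerebellum), 79 and 72 (hippocampus) and 0 and 0 (liver), a ratio of 171-fold (95% counting interval 30.2 to 6792) over the pooled libraries. Kcnf1 (Kv5.1, chromosome 12, 17172100 to 17176888) had 2 and 3 tags in cerebellum, with 87 and 75 in hippocampus and 0 and 1 in liver, and Kcng2 (Kv6.2) had 3 and 6 tags for cerebellum, 131 and 125 for hippocampus and 0 and 2 for liver. In each of these the hippocampal libraries held nearly all tags, in both genotypes. The log2 differences were 7.01 ± 0.58 (SE), 5.10 ± 0.43 (SE) and 4.96 ± 0.36 (SE) (adjusted p = 3.89e-09, 2.96e-09 and 2.44e-10). Kcns3 and Kcns1 (Kv9 subunits) had log2 differences of 3.36 ± 0.54 (SE) and 2.33 ± 0.38 (SE) (adjusted p = 4.19e-05 and 5.07e-05), from 4 and 2 and 11 and 8 cerebellar against 27 and 30 and 48 and 38 hippocampal tags. Kcng4 (Kv6.4, chromosome 8, 119623854 to 119635680) was the reverse, with 316 and 416 tags (cerebellum), 14 and 12 (hippocampus) and 0 and 5 (liver). Its cerebellar level was 24.9 times the hippocampal level (95% counting interval 16.8 to 38.4), with a log2 difference of -4.61 ± 0.27 (SE) (adjusted p = 6.4e-12).

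Among EAG-type subunits, Kcnh3 (Kv12.2, chromosome 15, 99224517 to 99242818), a forebrain channel of the ELK branch, had 3 and 3 tags in cerebellum, with 128 and 113 in hippocampus and 1 and 1 in liver. It was 45.4-fold (95% counting interval 20.6 to 125) higher in hippocampus, with a log2 difference of 5.43 ± 0.37 (SE) (adjusted p = 8.84e-11). Kcnh2, the ERG channel that in the heart repolarises the action potential, had 21.0 and 21.2 CPM in cerebellum and 9.40 and 14.9 in hippocampus and was lower there (log2 difference -0.81, adjusted p = 0.0300). Kcnh1, the founding EAG channel, had 33.5 and 27.0 CPM in cerebellum and 25.5 and 18.8 in hippocampus and did not pass (adjusted p = 0.148).

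Inward rectifiers held wide contrasts in both directions. Kcnj4 (Kir2.3, chromosome 15, 79480226 to 79512511) had 0 and 0 tags for cerebellum, 209 and 200 for hippocampus and 2 and 1 for liver. With 0 tags in both cerebellar libraries, set to a floor of 3 tags per library, it was at least 77.1-fold higher in hippocampus (adjusted p = 3.17e-12). Its hippocampal level was 70.2 and 72.5 CPM. Kcnj12 (Kir2.2, chromosome 11, 61022564 to 61073269), of the same Kir2 branch, had the reverse order with 253 and 256 tags (cerebellum), 8 and 16 (hippocampus) and 3 and 2 (liver), a log2 difference of -4.21 ± 0.28 (SE) (adjusted p = 6e-11). A further 176 tags matched Kcnj12 and Sri equally well and were left out. They spread evenly over the 4 brain libraries, with 35 and 39 in cerebellum and 36 and 36 in hippocampus.

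Kcnj13 (Kir7.1) and Kcne2, both known from choroid plexus epithelium, were almost confined to the cerebellar libraries. Kcnj13 had 30 and 37 tags in cerebellum, with 2 and 0 in hippocampus and 0 and 0 in liver, and Kcne2, a small membrane-spanning partner of Kv7.1, had 41 and 46 tags for cerebellum, 1 and 1 for hippocampus and 0 and 1 for liver. Their log2 differences were -4.69 ± 0.68 (SE) and -5.07 ± 0.60 (SE) (adjusted p = 1.27e-05 and 5.86e-07). Over the pooled libraries the cerebellar level of Kcnj13 was 29.6-fold (95% counting interval 7.88 to 249.5) the hippocampal level, and that of Kcne2 38.4-fold (95% counting interval 10.3 to 322). The 7 choroid plexus markers (Ttr, Folr1, Clic6, Kl, Aqp1, Slc4a5 and Otx2) summed to 2515 and 3647 CPM in cerebellum and 155 and 401 in hippocampus. Ttr alone gave 2483 and 3584 CPM of the cerebellar sums and 142 and 389 of the hippocampal sums. The other 6 markers summed to 32.3 and 62.8 CPM in cerebellum and 12.1 and 12.3 in hippocampus. One by one, the hippocampal level of the 7 markers was 6.06% to 54.9% of the cerebellar level, while Kcne2 was at 2.61% and Kcnj13 at 3.26%. The part of choroid plexus content in these differences was not tested.

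The remaining inward rectifiers differed less between the brain tissues. Kcnj6 (GIRK2), a G-protein-gated subunit, had 5 and 5 cerebellar and 18 and 19 hippocampal tags (log2 difference 2.03 ± 0.53 (SE), adjusted p = 0.00527), whereas its relative Kcnj9 (GIRK3) had 100 and 119 and 84 and 65 and did not pass (adjusted p = 0.244). Kcnj10 (Kir4.1), the potassium-buffering channel of astrocytes, had 37.9 and 43.7 CPM in cerebellum and 23.2 and 28.6 in hippocampus and was lower in hippocampus (log2 difference -0.66, adjusted p = 0.0168). Kcnj9 and Kcnj10 lie 11.9 kb apart on chromosome 1. Kcnj16 (Kir5.1), the partner of Kir4.1, had 18.8 and 19.7 CPM in cerebellum and 23.8 and 15.2 in hippocampus, and Kcnj11 (Kir6.2), the pore of the ATP-sensitive channel, 32.9 and 41.8 CPM and 31.9 and 32.2. Neither of these passed (adjusted p = 0.978 and 0.496).

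K2P channels pass background current. Kcnk1 (TWIK1) stood at 293 and 317 CPM (cerebellum), 129 and 126 (hippocampus) and 3.15 and 6.33 (liver), and Kcnk3 (TASK1, chromosome 5, 30588170 to 30625270), a pH-sensitive channel, at 186 and 172 CPM in cerebellum, with 14.8 and 17.4 in hippocampus and 3.15 and 3.80 in liver. Both were lower in hippocampus, by log2 differences of -1.25 ± 0.17 (SE) and -3.47 ± 0.20 (SE) (adjusted p = 2.95e-06 and 5.25e-12). Kcnk12, a member of the THIK pair, was also lower (log2 difference -1.37, adjusted p = 0.00227), with 71 and 47 tags in cerebellum and 19 and 21 in hippocampus. Kcnk2 (TREK1), a mechanosensitive channel, was higher in hippocampus, at 59.1 and 60.5 CPM against 22.2 and 23.6 (log2 difference 1.38 ± 0.21 (SE), adjusted p = 1.49e-05). Kcnk13 (THIK1), with 13 and 8 and 9 and 12 tags, and Kcnk6, with 20 and 13 and 20 and 9, did not pass (adjusted p = 0.834 and 0.973).

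Gene families that hold channels opened by sodium or calcium showed 1 large contrast. Kcnt1 (Slack, chromosome 2, 25863791 to 25918273), opened by intracellular sodium, stood at 155 and 166 CPM for cerebellum, 18.8 and 14.1 for hippocampus and 1.05 and 0 for liver. Its cerebellar level was 9.71 times the hippocampal level, a log2 difference of -3.28 ± 0.21 (SE) (adjusted p = 3.07e-11). Kcnma1, the BK pore subunit, stood at 60.1 and 60.3 CPM in cerebellum and 56.8 and 61.6 in hippocampus, and its beta subunit Kcnmb4 at 61.4 and 69.4 CPM in cerebellum and 52.4 and 57.2 in hippocampus. Neither of these passed (adjusted p = 0.931 and 0.332). Kcnn1 (SK1) had 14 and 31 tags in cerebellum and 54 and 41 in hippocampus (log2 difference 1.27 ± 0.33 (SE), adjusted p = 0.00522), while Kcnn2 (SK2) had 38 and 39 and 51 and 29 and did not pass (adjusted p = 0.639). Kcnu1 (Slo3), listed with the BK genes by family only and known from sperm, had 5 and 1 and 17 and 10 tags (log2 difference 2.28 ± 0.65 (SE), adjusted p = 0.0106).

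Marker genes of the neurons of each tissue give the scale of these contrasts. The 7 granule neuron markers were in hippocampus at 0.937% to 31.7% of their cerebellar level, and the 6 Purkinje cell markers at 0.714% to 17.7%. Kcng4 at 4.02%, Kcnj12 at 5.41% and Kcnt1 at 10.2% lay inside both ranges, whereas Kcnc1 at 20.2% lay above the Purkinje cell range. In the other direction the 8 hippocampal excitatory markers were in cerebellum at 0.309% to 83.9% of their hippocampal level. The upper end was Neurod2, at 200 and 176 CPM in cerebellum and 229 and 219 in hippocampus. A place inside so wide a range says little. Kcnv1 stood at 0.576%, Kcnh3 at 2.20% and Kcnf1 at 2.72%, also inside that range, while Kcnj4, with 0 cerebellar tags, lay below it. Small amounts of one tissue in another's library cannot be told apart from low expression at such levels.

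Other channel families were set beside the members. Of 24 HCN, sodium and calcium channel subunits tested, 10 were higher in hippocampus and 7 lower, against 15.8% and 13.5% of all features. The widest were the sodium channel beta subunit Scn3b (log2 difference 6.62) and the T-type calcium channel Cacna1h (5.86), and in the other direction the calcium channel subunits Cacna2d2 (-2.82) and Cacna1g (-2.52). Of 13 non-Kcn partners of potassium channels, 3 were higher and 4 lower, beside the same shares of all features. The BK partner Lrrc38 had 31 and 18 tags in cerebellum and 0 and 2 in hippocampus.

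Liver was compared with the mean of both brain tissues, taken on the log scale, in the same fit. Most members were far lower in liver: 44 of 52 tested were lower and 2 higher, against 36.4% and 33.9% of all features. The median log2 difference was -3.97 over the tested members and -0.16 over all features, and -3.53 over the members with the 7 tested genes at 0 liver tags set to their bound. The 30-tag limit favours brain genes, so neither count carries weight as support. With library totals in place of the scaling, the scaling factors alone shift liver-minus-brain differences by -1.26 on the log2 scale and hippocampus-minus-cerebellum differences by -0.12, and fitted differences of genes near 0 tags moved by other amounts.

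Kcnk5 (TASK2, chromosome 14, 20140057 to 20181782), an alkaline-activated K2P channel known from epithelia, was higher in liver, with 3 and 5 tags (cerebellum), 1 and 1 (hippocampus) and 14 and 20 (liver). Its liver level was 14.7 and 12.7 CPM, above every brain library, with a log2 difference of 4.24 ± 0.53 (SE) (adjusted p = 2.49e-07). Kcnk5 had 10 tags outside liver and passed the tag limit only through liver, so this p-value carries no weight as support. Kcnj8 (Kir6.1), the vascular pore of the ATP-sensitive channel, had 12 and 11 tags in cerebellum, with 4 and 19 in hippocampus and 10 and 23 in liver, or 3.76 and 3.33, 1.34 and 6.88 and 10.5 and 14.6 CPM. Its log2 difference was 1.70 ± 0.44 (SE) (adjusted p = 0.00161), a call that was lost with library totals. Abcc9, which encodes the sulfonylurea receptor that pairs with Kir6.1, had 14 and 49 liver tags against 13 and 13 cerebellar and 14 and 8 hippocampal tags (log2 difference 2.57), whereas Abcc8, the receptor that pairs with Kir6.2, had 0 liver tags. The endothelial and pericyte markers, which include Abcc9, summed to 5866 and 4567 CPM in liver against 172 to 226 in brain. Vtn alone gave 5813 and 4488 CPM of the liver sums, and the other 6 markers summed to 53.5 and 78.4 CPM in liver against 59.0 to 101 in brain. The part of these cells in the Kcnj8 difference was not tested.

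Other members with liver tags included Kcnq1ot1 with 30 and 84 and Kcna2 with 16 and 20. Kcnq1ot1 was at 41.6% of its brain level and Kcna2 at 9.49%. Kcnn1, Kcnn2, Kcnk6 and Kcnk13 did not differ past the threshold between liver and brain (adjusted p = 0.368, 0.307, 0.295 and 0.202), on 6 and 15, 9 and 15, 5 and 13 and 2 and 2 liver tags. Kcnj4 and Kcne2 did not pass either (adjusted p = 0.677 and 0.100), on 2 and 1 and 0 and 1 liver tags. Kcnj4 had a mean of 1.37 CPM in liver, 71.3 in hippocampus and 0 in cerebellum. A log-scale mean of the brain tissues is low for such a gene, whereas percentages of brain level use mean CPM. Both liver libraries had 0 tags for 8 members, namely Kcna4, Kcnab3, Kcnh2, Kcnj13, Kcnk12, Kcnn3, Kcnu1 and Kcnv1.

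The 18 members with at least 50 CPM in brain stood in liver at a median of 4.04% of their brain level, with a range of 0.592% (Kcnt1) to 41.6% (Kcnq1ot1). Markers of brain cells with the same minimum stood at similar fractions, with medians of 3.06% for granule neurons, 3.70% for Purkinje cells, 2.39% for hippocampal excitatory neurons and 3.34% for oligodendrocytes. The part of brain RNA in the liver libraries was not tested. Kcnc1 was at 2.01% and Kcnk1 at 2.19%, below the marker medians of granule neurons and Purkinje cells.

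**Figure D3:**
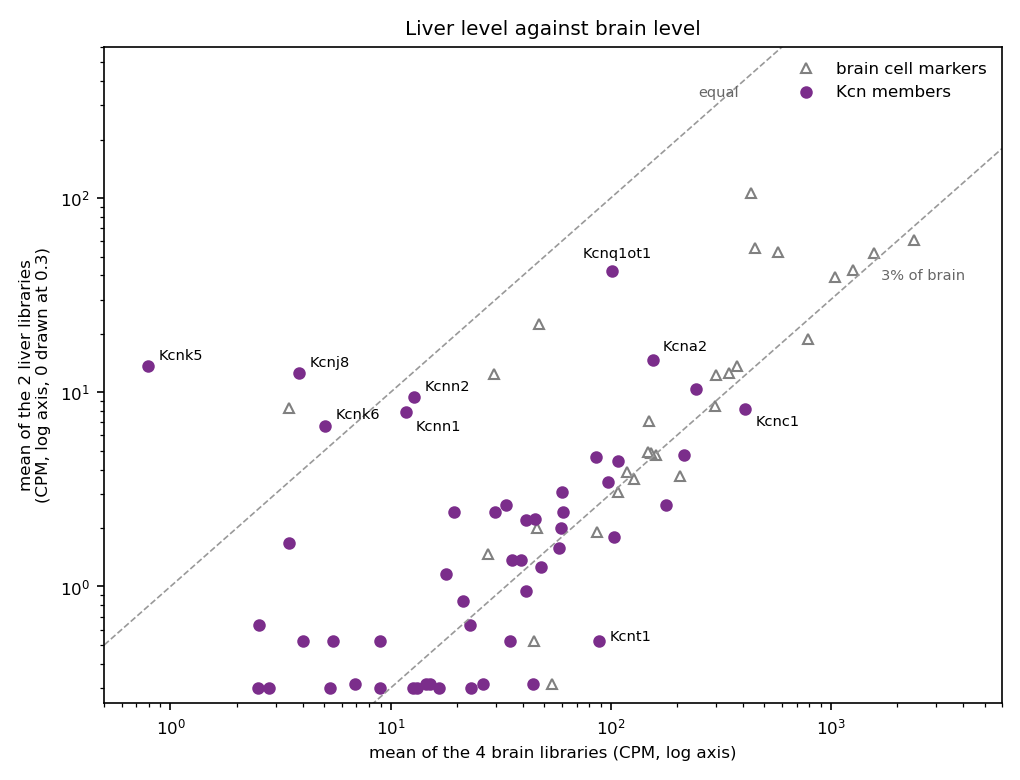
Mean liver level against mean brain level in CPM, on log axes, for 51 of the 54 members and for markers of granule, Purkinje, hippocampal excitatory and oligodendrocyte cells; dashed lines mark equal levels and 3% of the brain level. Kcnk5, Kcnj8 and Kcnk6 lie above equality, and most brain-rich members lie near the lower line among the markers.

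Knockout was then compared with wild type. No member passed in either fit of genotype. Across all 3 tissues 37 members were tested, 0 passed an adjusted p of 0.05 with edgeR's quasi-likelihood test or with DESeq2, and 0 had an unadjusted p under 0.05. Over all 11377 features 0.00879% were called higher and 0.0879% lower, and 4.89% had an unadjusted p under 0.05. Across the 4 brain libraries 51 members were tested, 0 passed with either tool, and 5 had an unadjusted p under 0.05, or 5 of 51 against 7.27% of all features. Of all features there, 0.158% were called higher and 0.764% lower. Sample titles repeat animal numbers from tissue to tissue, so the p-values of both fits reflect how far tissues agree, and the variation among animals does not enter them.

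Kcna4, Kcna2, Kcnab1 and Kcnk6 were 4 of these 5. Ratios are log2 ratios of knockout to wild type, with 95% counting intervals that cover counting error only. Kcna4, with 3 and 4 cerebellar and 34 and 61 hippocampal tags, had a brain estimate of -0.90 ± 0.36 (SE) (unadjusted p = 0.0164, adjusted p = 0.472) that rests on hippocampus. For Kcna2 the ratio was -0.10 (-0.26 to 0.06) in cerebellum and -0.58 (-0.81 to -0.35) in hippocampus, with a brain estimate of -0.32 ± 0.14 (SE) (unadjusted p = 0.0238, adjusted p = 0.534). Its liver tags were 16 and 20. Kcnab1 had -0.39 (-0.60 to -0.17) in cerebellum and -0.17 (-0.41 to 0.06) in hippocampus, with a brain estimate of -0.28 ± 0.14 (SE) (unadjusted p = 0.0475, adjusted p = 0.675). Oligodendrocyte markers, 3 of 7 lower in cerebellum and 6 of 7 in hippocampus, had summed log2 ratios of -0.42 (-0.45 to -0.38) and -0.33 (-0.37 to -0.28). Mbp alone gave most of these tags, and without it the other 6 markers summed to -0.05 (-0.11 to 0.02) in cerebellum and -0.14 (-0.22 to -0.06) in hippocampus. The part of these cells in the Kcna2 and Kcnab1 ratios was not tested.

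Kcnk6 (TWIK2) differed from the other 3 in having more tags in knockout, 20 and 13 in cerebellum and 20 and 9 in hippocampus. Its brain estimate was 0.83 ± 0.41 (SE) (unadjusted p = 0.0480, adjusted p = 0.678). The count is uncertain, since 91 tags matched Kcnk6 and Oxsm equally well and were left out. Those went the other way, with 17 and 27 in cerebellum and 8 and 29 in hippocampus.

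A single tissue has 1 pooled library of each genotype and no replicate check, so its ratios are described with their counting intervals. Among members with a mean of at least 10 CPM, none reached an absolute log2 ratio of 1 with an interval that excluded equality in any tissue. The share of all features doing so, higher and lower, was 0.14% and 0.315% for cerebellum, 0.453% and 1.05% for hippocampus and 1.42% and 3.55% for liver. In cerebellum, 35 members reached that level and 25 of them were below equality, with a median log2 ratio of -0.09 against -0.01 over all features. In hippocampus it was 40 members with 22 below, and a median of -0.04 against 0.01. In liver 7 members reached it.

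In cerebellum the interval lay above equality for 2 of 35 members and below for 5, against 7.04% and 8.05% of all features. The higher ones were Kcnk12, at 0.64 (0.09 to 1.21) from 71 and 47 tags, and Kcnq1ot1. The lower ones included Kcnab1, Kcng4 at -0.35 (-0.57 to -0.14), Kcnab2 at -0.32 (-0.59 to -0.05) and Kcnc1 at -0.10 (-0.18 to -0.01). Kcnh1 at 0.31 (-0.11 to 0.73) had the second highest ratio, with an interval that held equality. In cerebellum 6 of 6 Purkinje cell markers were lower in knockout, with a summed log2 ratio of -0.15 (-0.18 to -0.12), and 1 of 7 granule neuron markers was lower, with a sum of 0.05 (0.00 to 0.10). The part of cell content in these member ratios was not tested.

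In hippocampus the interval lay above equality for 3 of 40 members and below for 6, against 12.5% and 10.5% of all features. Kcnn2 at 0.71 (0.02 to 1.42) from 51 and 29 tags, Kcnj16 at 0.65 (0.08 to 1.23) and Kcnip4 at 0.50 (0.09 to 0.92) were the highest ratios. In cerebellum the same genes stood at 0.01 (-0.67 to 0.69), -0.07 (-0.60 to 0.46) and -0.01 (-0.32 to 0.30). None of these higher ratios was thus seen in both brain tissues, and the difference between tissues was not tested. Kcna4 at -0.95 (-1.60 to -0.32) was the lowest, followed by Kcnh2 at -0.66 (-1.41 to 0.07), whose interval held equality, and Kcna2. Kcnq1ot1 and Kcnab2, at -0.15 (-0.27 to -0.03), were also below equality. Hippocampal excitatory neuron markers, 4 of 8 lower in knockout hippocampus, had a summed log2 ratio of -0.20 (-0.23 to -0.17). Interneuron markers, 2 of 6 lower, had 0.21 (0.12 to 0.31). Without their most tagged genes, Nrgn and Gad1, these sums were -0.32 (-0.37 to -0.27) and 0.29 (0.18 to 0.39). The part of neuron content in the hippocampal member ratios was not tested.

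Kcnab2 had intervals below equality in both brain tissues. Kcnj8, under the level used here, had 4 and 19 hippocampal tags, a log2 ratio of -2.36 (-4.37 to -0.77), against 0.17 (-1.14 to 1.49) in cerebellum. The 7 hepatocyte markers had a summed hippocampal ratio of -2.43 (-2.55 to -2.30), with 6 of 7 lower, while the endothelial and pericyte markers had -0.05 (-0.24 to 0.13) with Vtn and 0.33 (0.03 to 0.63) without it. Their part in the Kcnj8 ratio was not tested.

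Of the 7 liver members, 1 had an interval away from equality, Kcnq1ot1 at -0.76 (-1.41 to -0.14) from 30 and 84 tags, against 11.9% above and 10.9% below over all features. The ratios were 0.22 (-0.88 to 1.27) for Kcnk5, 0.41 (-0.64 to 1.43) for Kcna2, 0.61 (-0.65 to 1.86) for Kcnab2 and -0.47 (-1.71 to 0.66) for Kcnj8. These and the other 2 intervals held equality.

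**Figure D4:**
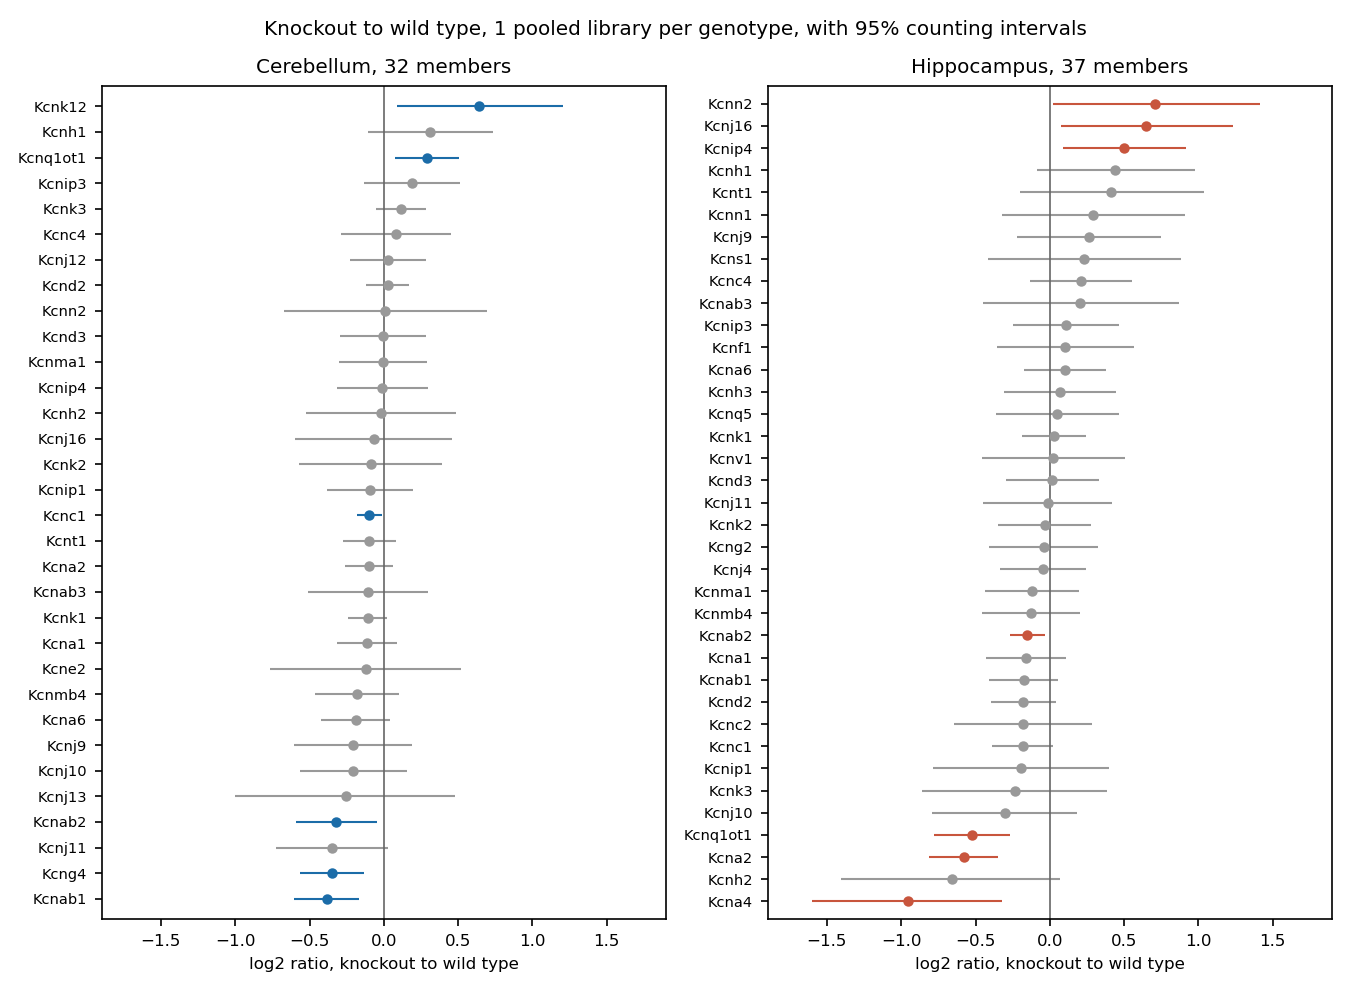
Log2 ratio of knockout to wild type with its 95% counting interval in cerebellum (32 of 35 members) and hippocampus (37 of 40 members) for members with a mean of at least 10 CPM; coloured points have an interval that excludes equality. Cerebellar ratios run from -0.39 (Kcnab1) to 0.64 (Kcnk12), and hippocampal ratios from -0.95 (Kcna4) to 0.71 (Kcnn2).

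Summed over all 54 members, knockout stood at 3795 CPM and wild type at 4141 in cerebellum, a log2 ratio of -0.13, and at 2672 and 2902 in hippocampus, a ratio of -0.12. The sum follows its most abundant genes. By subfamily, sums with an interval below equality included Kv beta at -0.32 (-0.48 to -0.16), modifier subunits at -0.33 (-0.54 to -0.12) and Kv1 at -0.12 (-0.23 to -0.02) in cerebellum, and Kv1 at -0.30 (-0.44 to -0.16) and Kv beta at -0.15 (-0.25 to -0.04) in hippocampus. The modifier sum is nearly all Kcng4, with 316 and 416 of its 336 and 436 cerebellar tags. Of the 6 modifier members, 3 had a cerebellar ratio above equality, and the median log2 ratio was 0.08. SK channels were at -0.28 (-0.80 to 0.23) in cerebellum and 0.49 (0.07 to 0.93) in hippocampus. Kv4 and K2P sums held equality in both brain tissues. The 24 HCN, sodium and calcium channel subunits with at least 30 tags had sums of -0.15 in cerebellum and -0.18 in hippocampus, and none passed in a genotype fit.

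Kcnq1ot1 (chromosome 7, 143213111 to 143296547) is an imprinted noncoding RNA transcribed antisense to Kcnq1. It stood at 122 and 100.0 CPM for cerebellum, 75.6 and 109 for hippocampus and 31.5 and 53.1 for liver. Knockout was above wild type in cerebellum and below it in hippocampus and liver, with log2 ratios of 0.29 (0.08 to 0.51), -0.52 (-0.78 to -0.27) and -0.76 (-1.41 to -0.14). A further 145 tags matched it and A630089N07Rik equally well.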

How the data were processed

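The authors deposited raw counts of MACE tags per RefSeq record for 6 libraries, in sense and antisense orientation and with no normalization, per the file headers. Base calling used CASAVA 1.8.2 and the build was mm9, per the submitters' processing notes, and an aligner was not named. Sense counts of the combined table were summed per gene symbol into 24764 features, 5728 of them joint rows of several named genes that were kept apart. Rows that name no gene took 23.8% to 30.1% of all tags and entered neither library sizes nor tests. Gene tags numbered 1774523 to 2727523 per library.

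Counts were fitted with edgeR 4.0.16 in R 4.3.3 (quasi-likelihood, TMM scaling, filterByExpr) over all features, with Benjamini-Hochberg adjustment at 0.05. The tissue fit used all 6 libraries with genotype as a term, and the genotype fits used 6 or 4 libraries with tissue as a term. Within a tissue, ratios carry exact 95% Clopper-Pearson intervals, which cover counting error only, and a count of 0 was set to 3 tags per library. Alternatives were DESeq2 1.42.0, other scalings and filters, libraries left out and rows of 1 symbol only. The fits were tried on simulated counts with 1 mean profile for all libraries and planted changes, and the counting intervals on Poisson counts. Neither simulation held the tissue differences of the real libraries, and the Poisson counts held counting error only.

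Named genes were the highest members of each subfamily, the 8 largest and smallest called tissue differences, members called higher in liver or with the most liver tags, members with an unadjusted p under 0.05 for genotype, the extreme ratios per tissue, those near the 30-tag limit and those with opposite intervals. Further members were named to account for each subfamily. Marker sums are also given without the most tagged gene of the list (Vtn, Mbp, Ttr, Nrgn, Gad1), an addition chosen after seeing the data. Marker genes, other channel genes and Atxn2 were named beside the results they touch. The members and lists were chosen with earlier results of these data known. Gene positions and promoter windows are those of RefSeq on GRCm38.p6. Where the protocol text differs (midbrain, ages given in weeks), groups follow the sample labels (hippocampus, 6 months). Promoter windows of the other 14 members were not used here, and results of 3 members that enter the counts are not reported here.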

Additional observations from a re-analysis of the deposited data

Results flagged for a closer look

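The knockout to wild-type ratio of the noncoding RNA Kcnq1ot1 had opposite directions in different tissues, with counting intervals on opposite sides of equality. Its log2 ratio was 0.29 (95% counting interval 0.08 to 0.51) in cerebellum and -0.52 (-0.78 to -0.27) in hippocampus, which is 0.8156 higher in cerebellum. In liver it was -0.76 (-1.41 to -0.14), so that the cerebellar ratio was 1.0472 higher. Each value comes from 1 pooled library per genotype, and the difference between tissues was not tested. The 145 tags shared with A630089N07Rik numbered 37 for knockout and 34 for wild type in cerebellum, 19 and 33 for hippocampus, and 7 and 15 for liver.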

How the results depend on the processing

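For hippocampus against cerebellum, 14 to 19 members were higher and 12 to 18 lower when 1 library was left out, and DESeq2 gave 11 lower in place of 18. The 25 members called with DESeq2 were all among the 35, and over all features DESeq2 called 1935 in place of 3791. Calls over all features also fell whenever a brain library was left out. For liver against brain, leaving out 1 library gave 2 members higher each time and 39 to 42 lower, with Kcnj6, Kcnj13, Kcns3, Kcnu1 and Kcnv1 the calls lost. Library totals left 1 member higher, Kcnk5, and called Kcne2, Kcnk13, Kcnn1 and Kcnn2 lower as well. A minimum of 10 CPM in 2 libraries removed Kcnk5 and Kcnj8 from the test, leaving 0 higher. Against cerebellum alone the liver difference turned positive for Kcnj4 (4.61, with 0 cerebellar tags) and Kcnq5 (0.14). In the genotype fits, 0 members were called under any alternative, tissues left out included. With an absolute log2 ratio of 0.5 as the size limit, 1 member was higher in cerebellum, 2 higher and 3 lower in hippocampus, and 1 lower in liver. A minimum mean of 5 CPM gave 1 lower in cerebellum. The shares of all features under these changed limits are not given, so these counts carry no weight as support. No paired analysis was possible because each tissue and genotype has 1 library, beyond the genotype term that sets the tissues of a pool side by side. Few tags limit the liver values, where 8 members had 0 tags and 5 had at least 30, and the causes of the changes above were not tested.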

Other observations

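Antisense tags were few on the members, with 185 against 42333 sense tags, or 0.435%, compared with 2.60% over all features. Kcnd2 held 45 of them, Kcnq1ot1 27 and Kcnab1 19, and 21 members held none. Tags antisense to Kcnq1ot1 lie on the strand of its host gene Kcnq1.

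Kcnma1, the BK pore gene with many annotated variants, had 84.4% of its cerebellar and 85.3% of its hippocampal tags in 1 group of records that share an end, and 10.7% and 10.0% in a second group. Kcnk2 had 39.6% of its tags in cerebellum and 44.3% in hippocampus in records of variant 1 alone, and 8.72% and 9.04% in records of variant 2 alone. The choroid plexus markers other than Ttr summed to 103 tags in knockout and 207 in wild-type cerebellum, while Kcne2 had 41 and 46 tags there and Kcnj13 had 30 and 37.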
